A study of Homo sapiens with 36 samples.

Results

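The proteasome subunit genes were followed in HCT-116 cells, a human colorectal cancer line, over 16 days after exposure to 5-fluorouracil (5-FU). Members were taken by name: protein-coding genes called PSMA, PSMB, PSMC or PSMD with a number, without the 3 inducible catalytic subunits PSMB8, PSMB9 and PSMB10. Of 36 such symbols in the annotation, 33 had a row among the 15891 genes listed. They were 13 core particle genes (6 alpha and 7 beta), 17 regulatory particle genes (6 ATPases and 11 non-ATPase subunits) and 3 assembly chaperones that share the naming, PSMD5, PSMD9 and PSMD10. PSMA2, PSMA8 and PSMB11 were not analysed here.

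The proteasome is the protease that degrades most ubiquitin-tagged proteins of the cytosol and nucleus. Its core particle is a barrel of stacked rings, with alpha subunits forming the outer rings that gate the entrance and beta subunits forming the inner rings, where PSMB5, PSMB6 and PSMB7 carry the active sites. The regulatory particle caps the barrel: the PSMC proteins form a ring of ATPases that unfolds substrates, and the PSMD proteins recognise ubiquitin, remove it and hold the cap together. Because every assembled particle needs its subunits in fixed proportion, the mRNAs are often controlled together, in human cells largely by the transcription factor NFE2L1.

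Cells received 10 µM 5-FU for 48 h and were harvested on D1, D2, D7, D14 and D16, while D0 cells were harvested before the drug was added. No untreated cells of the later days are among the samples, so drug and time in culture cannot be told apart. All cells, D0 included, were exposed briefly to emetine, which holds ribosomes on mRNA, just before harvest. From each harvest, RNA was sequenced from a heavy polysomal pool (mRNAs carrying more than 3 ribosomes) and from the cytoplasmic lysate, with 3 libraries per group lettered A, B and C, 36 libraries in 12 groups. The letters are named both as replicates and as batches, and nothing says whether they were separate cultures, so p-values measure only the spread between these libraries, which may be technical. All groups come from this 1 line. Values are normalised read counts, gene reads divided by a size factor per library, so they are relative to the other mRNAs of a library. In such bulk samples, fewer cells of a kind and less RNA per cell cannot be told apart.

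Depth was 46.1 to 55.7 megareads in the heavy pool and 41.0 to 103.6 megareads in the cytoplasm. The 33 genes took 0.483 to 1.11% of reads in the heavy pool and 0.370 to 0.757% in the cytoplasm. Ribosomal protein mRNAs took 5.18 to 7.0% of heavy pool reads up to D7 and 10.2 to 12.3% on D14 and D16, and cytoplasmic D7 letter A stood apart at 22.8%. Cytoplasmic D14 and D16 of letter B stood apart in GC content, with a correlation across genes of 0.81 and 0.76 between the deviation from the group mean and GC content. The median spread of a member within a group was 0.119 on the log2 scale in the heavy pool and 0.257 in the cytoplasm. CDKN1A, the p53 target that marks the drug response, rose by 4.70 on D2 in the heavy pool and 4.51 in the cytoplasm (log2, limma). Of 9 colorectal epithelial markers 7 were listed, with a summed value of at least 298500 in the heavy pool and 267300 in the cytoplasm, and CDX1 and VIL1 were not analysed here. Of 11 markers of other cell types, 2 were listed (COL1A1 and HBA1), with a summed value of 232 to 1042 in the heavy pool and 371 to 1236 in the cytoplasm; their part in the results was not tested.

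Before treatment the subunit mRNAs differed widely in level, even per length of mRNA. Per kilobase of the main transcript, the median core gene had 15030 normalised reads in the heavy pool and 10077 in the cytoplasm, and the median regulatory gene had 6583 in the heavy pool and 4508 in the cytoplasm. Within the core, the median beta gene had 17146 in the heavy pool and 14655 in the cytoplasm. The median alpha gene had 3521 in the heavy pool and 2742 in the cytoplasm, under the regulatory medians. This order rests on the annotated length of the main transcript. PSMA4 has 4411 bases there for 783 coding bases, and PSMA5 has 3729 for 723. Which transcript ends the cells used was not tested, so the alpha medians may be too low. In the cytoplasm PSMA7, an alpha ring subunit, was the highest with 25086 ± 2251 per kilobase (SD, n = 3). The lowest were PSMD9 with 230 ± 9.58 and PSMA1 with 315 ± 16.0 per kilobase (SD, n = 3 each). Exons of PSMA1, PSMA6 and PSMD9 overlap another gene on the same strand, and exons of 9 members overlap a gene on the opposite strand. How reads in such overlaps were assigned, and the strand setting, are not given in the sources used here, so the values of these genes are uncertain. The same holds for the 8 members with annotated pseudogenes, PSMC1 with the most.

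Before treatment most proteasome mRNAs were higher in the heavy pool than in the cytoplasm, and the median ratio was larger over regulatory than over core genes. At D0, 19 of 33 members were higher in the heavy pool than in the cytoplasm and 2 were lower by limma, where 26.7% of all genes tested were higher and 19.1% lower. The median log2 ratio was 0.72 over regulatory genes, 0.41 over core genes and 0.14 over all genes. PSMD2, a scaffold of the regulatory particle that docks ubiquitin carriers, had 51198, 50536 and 54188 normalised reads in the heavy pool (A, B, C), against 18927, 18797 and 22162 in the cytoplasm. The log2 ratio was 1.38 ± 0.17 (SE, adjusted p = 3.6e-07), the largest among members. The next were PSMD5, a chaperone of ATPase ring assembly (1.18 ± 0.20), and PSMD3, a subunit of the lid of the cap (1.09 ± 0.15). Among the catalytic subunits the ratio was 0.73 ± 0.16 for PSMB5, 0.45 ± 0.16 for PSMB7 and 0.00 ± 0.15 for PSMB6. PSMA7 had 15323, 14780 and 15915 in the heavy pool against 27233, 24976 and 22749 in the cytoplasm, with no overlap and a log2 ratio of -0.70 ± 0.17 (adjusted p = 0.0011). PSMD9 was the other member lower in the heavy pool (-0.49 ± 0.20, adjusted p = 0.041). Without letter C, 12 members passed.

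The heavy pool ratio followed the length of the coding sequence. Across the 33 genes, the Pearson correlation of the D0 log2 ratio with log2 coding length was 0.67, and over 12399 protein-coding genes it was 0.51; genes of a library share depth and preparation, and no test is given. Core coding sequences were short, with a median of 744 bases, while regulatory ones had a median of 1254 bases, PSMD1 reaching 2859 bases and PSMD2 2724 bases. PSMA7, with 744 bases, lay well under PSMA5 and PSMB1, with 723 bases each, whose ratios were 0.45 and 0.40.

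**Figure D1:**
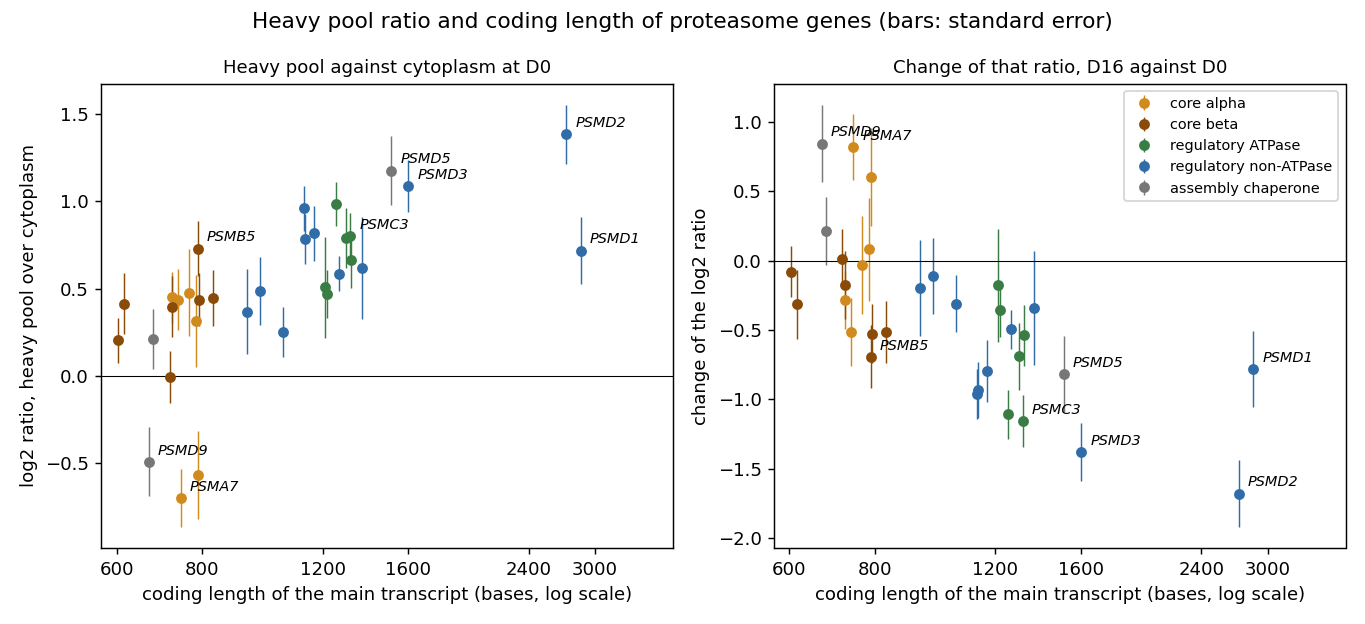
Log2 ratio of heavy pool over cytoplasm at D0 (left) and its change on D16 against D0 (right), for each of the 33 genes against coding length in bases on a log scale; points are limma estimates and bars are standard errors. At D0 the ratio runs from -0.70 for PSMA7 to 1.38 for PSMD2, and on D16 the order is turned, from -1.68 for PSMD2 to 0.84 for PSMD9.

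Promoters of proteasome genes are known for the antioxidant response element bound by NFE2L1 with small MAF proteins. The 250 bases before the RefSeq start (GRCh38.p14) were searched on both strands for the element's letters TGACNNNGC. Promoter sequences were found for 28 of the 33 genes, with 34 starts in all. The motif was in 7 of these 34 promoters (20.6%), of 7 genes, where 10.9% of 35116 promoters held it. Each match is printed in capitals with the bases around it in lower case, read on the strand of the gene. They are given because these genes include PSMB3 and PSMD3, which both rose in the cytoplasm on D1. Both were lower in the heavy pool on D16, PSMD3 with one of the largest falls. These genes also include the chaperones PSMD5 and PSMD9, whose heavy pool changes on D7 had opposite signs. No match is given for PSMD2, with the largest heavy pool fall on D16. The same holds for the other D1 risers PSMB4, PSMB5, PSMB6, PSMC3, PSMC4, PSMD8 and PSMD13. The 5 members without a promoter sequence could not be searched and may be among these, so a missing match need not mean a missing motif. A link of motif and change was not tested. The match at PSMC5 and the first at PSMD9 lie on the opposite strand, so the motif appears reversed. A match is a description of letters and shows no binding.
PSMA4, chr15:78540652-78540676, plus strand: gggcacgaTGACTCTGCaccgcctc
PSMB3, chr17:38752629-38752653, plus strand: ctccgtttTGACTTTGCaaccaaac
PSMC5, chr17:63827656-63827680, plus strand: ccggatctGCTGTGTCAgcgccgcc
PSMD12, chr17:67366726-67366750, minus strand: acaaaaccTGACGCTGCaggctgga
PSMD3, chr17:39980762-39980786, plus strand: ccctttgtTGACTCGGCcatcggcc
PSMD5, chr9:120843040-120843064, minus strand: gctacagtTGACACGGCcctaacgg
PSMD9, chr12:121888633-121888657, plus strand: ctactcctGCCGGGTCAccacaggc
PSMD9, chr12:121888680-121888704, plus strand: gcttccggTGACCCAGCtccgccct
The distance of the match from the start was 37 bases in PSMD3, 57 in PSMC5, 104 in PSMB3, 126 in PSMA4, 134 in PSMD5 and 165 in PSMD12, and 102 and 149 in PSMD9.

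Over the whole course, nearly every member moved. By limma's F test for a change on any day, 33 of 33 members passed in the heavy pool, where 95.1% of all genes did, and 30 of 33 in the cytoplasm, where 61.5% did. PSMA1, PSMC6 and PSMD12 were the members that did not pass in the cytoplasm. The heavy pool ratio changed in 19 of 33 members, close to the 54.1% of all genes. In the heavy pool the lowest of the 6 daily means fell on D16 in 28 members, and the highest on D0 in 15 and on D1 in 13. In the cytoplasm the lowest mean fell on D16 in 26 members, and the highest on D1 in 21 and on D7 in 8. All comparisons with D0 share its libraries.

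**Figure D2:**
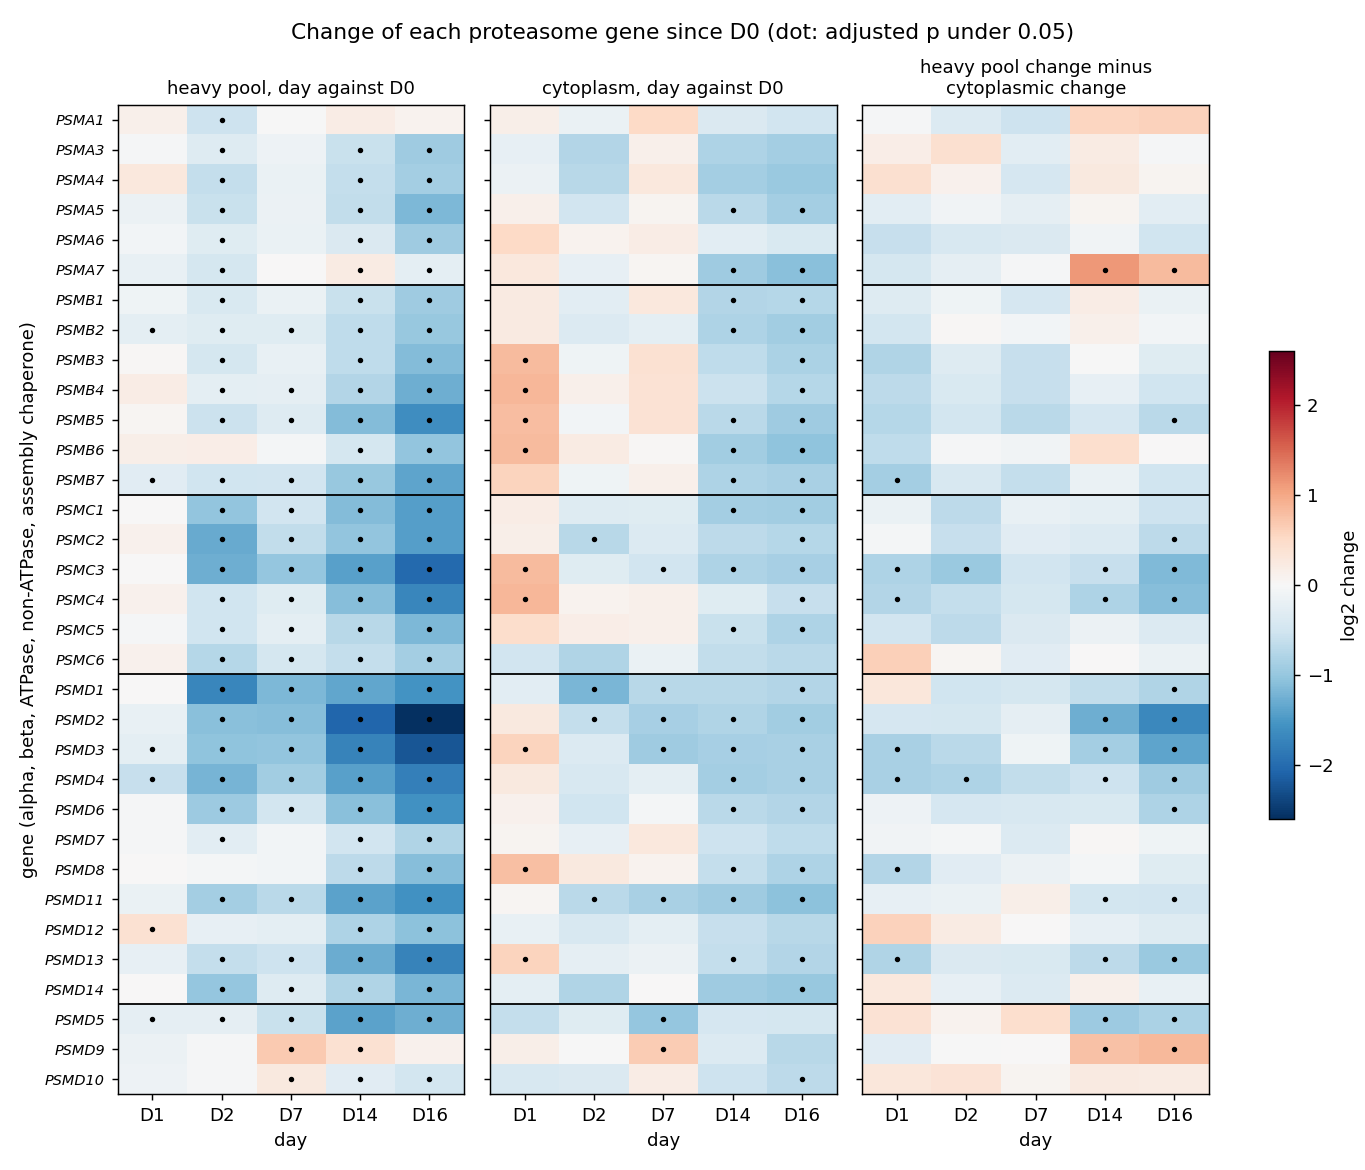
Log2 change since D0 of each of the 33 genes (rows, grouped as alpha, beta, ATPase, non-ATPase and chaperone) on each later day, in the heavy pool, in the cytoplasm, and as the heavy pool change minus the cytoplasmic change; a dot marks an adjusted p under 0.05 by limma. The heavy pool darkens to blue towards D16, most in PSMD2 at -2.59, while the cytoplasm holds a patch of red on D1.

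On D1, during drug exposure, a set of core beta and regulatory mRNAs was higher in the cytoplasm. Of 33 members 9 rose and 0 fell, where 10.9% of all genes rose and 7.09% fell. The risers were PSMB3, PSMB4, PSMB5 and PSMB6, the ATPases PSMC3 and PSMC4, and PSMD3, PSMD8 and PSMD13. PSMB4, a structural beta subunit, had 31986, 33037 and 25419 on D1, against 16744, 16251 and 16084 on D0, the largest rise (0.87 ± 0.20, adjusted p = 0.0064). All 3 libraries of D1 lay above all 3 of D0. PSMC4 followed with 0.86 ± 0.16 and PSMB3 with 0.82 ± 0.23. The catalytic PSMB5 had 23325, 24242 and 20538 on D1 against 13927, 12622 and 12569 on D0 (0.80 ± 0.21, adjusted p = 0.013). PSMB6 gained 0.81 ± 0.19, and PSMB7, the third catalytic subunit, gained 0.58 ± 0.21 without passing (adjusted p = 0.070). Members with GC-rich exons stood higher: across the 33 genes the D1 change had a Pearson correlation of 0.78 with GC content, and across 12389 protein-coding genes 0.52. PSMC6 and PSMD14, with 39.4% and 36.9% GC, had changes of -0.50 and -0.26 that did not pass. In the cytoplasm D1 letter A had a correlation of -0.50 and letter B of 0.58 between deviation and GC content; the part of this in the rise was not tested. Both listed markers of other cell types rose in the same libraries. COL1A1, a collagen of fibroblasts, had 824, 701 and 747 on D1 against 382, 334 and 351 on D0 (1.09, adjusted p = 0.0043), and HBA1, a globin of red cells, had 412, 415 and 321 on D1 against 69.0, 92.0 and 77.7 on D0 (2.25, adjusted p = 3.5e-04). The other 9 of 11 markers were not analysed here, and the part of these changes in the rise was not tested. Without letter B 1 member rose, and without letter C 0 did. Scaling libraries to equal totals set the median of all genes at -0.26, and 7 members still rose.

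The heavy pool showed no such rise on D1. There 1 member rose and 5 fell, where 20.1% of all genes rose and 26.9% fell. PSMD12, a lid subunit, had 14209, 14002 and 17756 on D1 against 10673, 11258 and 12763 on D0 (0.40 ± 0.11, adjusted p = 0.0061). PSMD4, a ubiquitin receptor of the cap, had 13601, 15207 and 13025 on D1 against 20343, 21378 and 21443 on D0 (-0.60 ± 0.09, adjusted p = 1.2e-05). PSMB7 (-0.30), PSMD3 (-0.26), PSMD5 (-0.24) and PSMB2 (-0.24) also fell. PSMB5 had a change of 0.05 ± 0.10 and PSMB6 of 0.16 ± 0.09, neither passing. With the letter as a block, 3 members rose and 7 fell, and by edgeR 3 rose and 2 fell. Under equal totals, which set the median of all genes at 0.13, 14 rose and 1 fell, so the D1 balance in this pool turns with the scaling. Without letter B, 1 rose and 1 fell.

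The difference between the pools on D1 passed for 7 members, all of which lost, where 0.787% of all genes gained and 3.37% lost. A gain or loss here means a heavy pool change above or under the cytoplasmic change, and no share of an mRNA on polysomes was measured. PSMB7 had the largest loss, a heavy pool change minus cytoplasmic change of -0.88 ± 0.22 (adjusted p = 0.029), then PSMD4 (-0.84 ± 0.20) and PSMD3 (-0.84 ± 0.21). PSMC3, PSMC4, PSMD8 and PSMD13 were the others. This difference too ran with GC content, with a Pearson correlation of -0.81 across the members and -0.70 across 12390 protein-coding genes. No member passed under equal totals, which set the median of all genes at 0.34, nor without letter B or C, 1 passed without letter A, and 14 passed without the 3 cytoplasmic libraries that stand apart.

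**Figure D3:**
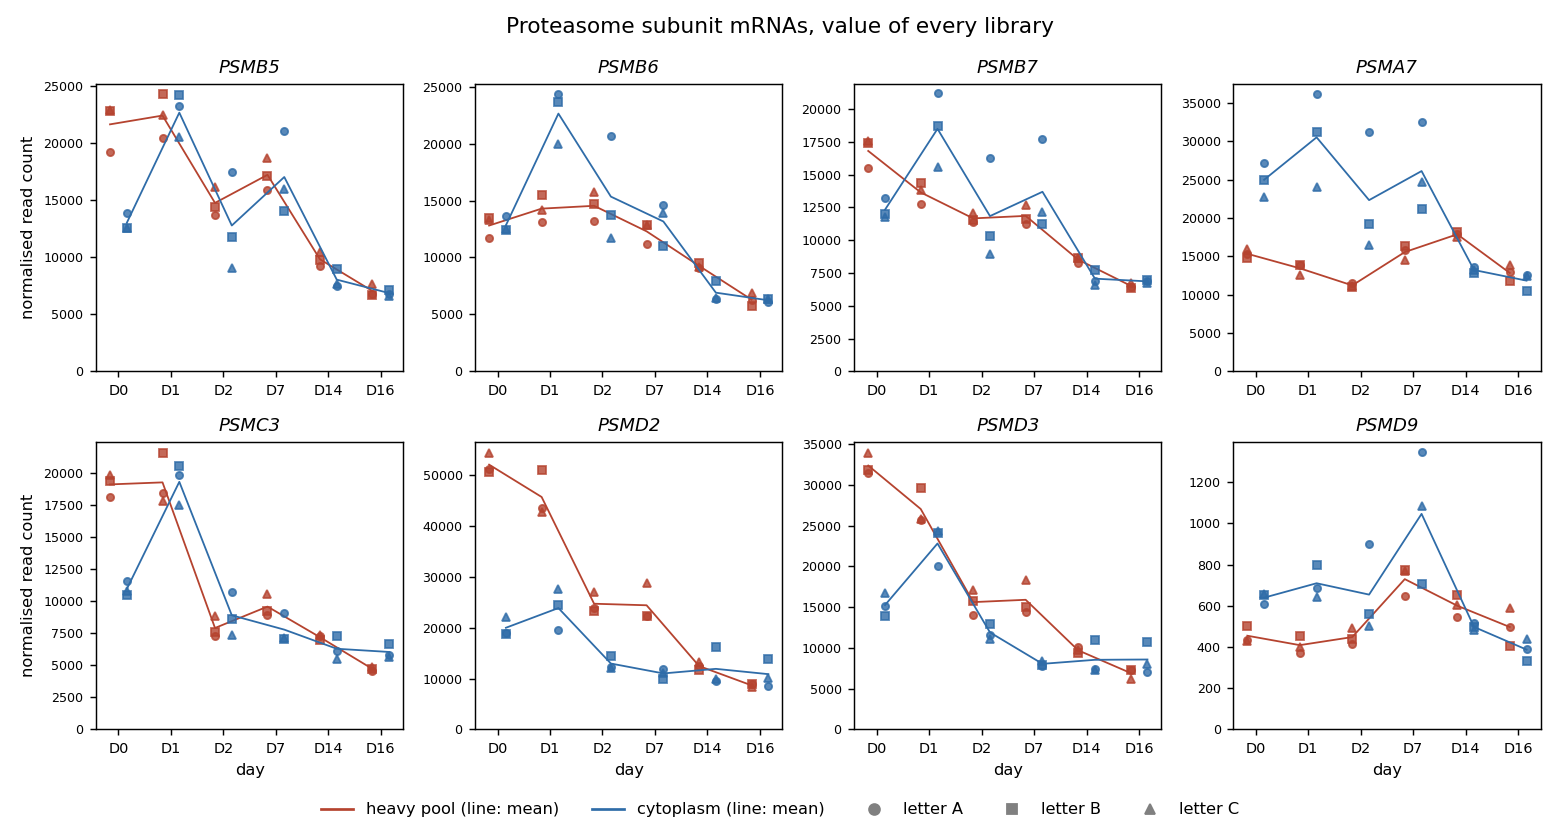
Normalised read count of 8 members in every library by day, heavy pool to the left of cytoplasm, with lines through the means of 3 libraries and a symbol for each letter. In the cytoplasm PSMB5, PSMB6, PSMB7 and PSMC3 have their highest means on D1, as PSMB5 and PSMC3 also do in the heavy pool, where neither passed; PSMD2 falls from D2 on in the heavy pool, and PSMA7 has its highest heavy pool values on D14.

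By D2, at the end of exposure, the regulatory particle mRNAs had fallen most in the heavy pool. There 28 of 33 members fell and 0 rose, where 34.5% of all genes fell and 30.4% rose. The median log2 change was -0.95 over the 17 regulatory genes, -0.45 over the 13 core genes and -0.03 over all genes. PSMD1, the other large scaffold of the cap, had 3469, 3292 and 3490 on D2 against 10650, 10090 and 12848 on D0, a fall of 3.26-fold (-1.70 ± 0.10, adjusted p = 1.5e-12). The ATPase PSMC2 had 3235, 2982 and 3062 on D2 against 7474, 7357 and 8315 on D0 (-1.32 ± 0.10). PSMC3 (-1.28), PSMD4 (-1.21) and PSMD14, the deubiquitinase of the cap (-1.0), fell too. In each of these genes the D2 libraries lay under all D0 libraries. The longer members had fallen more: the D2 change had a Pearson correlation of -0.66 with log2 coding length across the 33 genes and of -0.14 across 12396 protein-coding genes. PSMB6 (0.18), PSMD8 (-0.04), PSMD9 (-0.02), PSMD10 (-0.03) and PSMD12 (-0.21) did not pass. Under equal totals the median of all genes moved to 0.35 and 13 members fell while 4 rose; PSMA3, PSMA6, PSMB2, PSMB4, PSMD5 and PSMD7, the smallest falls here, changed sign, and PSMD9 was then at 0.36 and PSMD10 at 0.35.

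In the cytoplasm on D2, 4 members fell and 0 rose, where 10.6% of all genes fell and 14.2% rose, so the count is near the background. All 4 were regulatory: PSMD1 had 2915, 2632 and 3468 on D2 against 6523, 7356 and 6462 on D0 (-1.18 ± 0.25, adjusted p = 0.002), PSMC2 changed by -0.73, PSMD11 by -0.70 and PSMD2 by -0.63. The replicate block made this 9 lower, equal totals 9 lower with the median of all genes at -0.11, and leaving out the 3 libraries that stand apart 11 lower. Without letter C, 1 was lower. The heavy pool change differed from the cytoplasmic change in 2 members, PSMC3 (-0.96 ± 0.19, adjusted p = 0.0057) and PSMD4 (-0.80 ± 0.20), where 2.03% of all genes lost and 0.0378% gained. Leaving out any letter ended both calls, as did equal totals, and 7 members passed without the libraries that stand apart.

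On D7, after the drug had ended, most regulatory mRNAs were still lower in the heavy pool, while most core mRNAs did not pass the test there. In the heavy pool 19 members fell and 2 rose, where 36.5% of all genes fell and 27.0% rose. Of the 17 regulatory genes 14 fell, and of the 13 core genes 4 fell. PSMD1 had 4646, 4604 and 5602 on D7 against 10650, 10090 and 12848 on D0 (-1.18 ± 0.10). PSMD2 changed by -1.10 ± 0.10 and PSMD3 by -1.03 ± 0.10. The risers were the chaperones PSMD9 (0.68 ± 0.13) and PSMD10 (0.26 ± 0.10). COL1A1 (-0.95) and HBA1 (-1.92) were lower in the same libraries. Under equal totals 11 fell and 5 rose, with the median of all genes at 0.18, and PSMB4, PSMB6 and PSMC5 changed sign, PSMB6 being then higher at 0.23. In the cytoplasm 6 fell and 1 rose, where 15.7% of all genes fell and 18.3% rose, so the count of falls is near the background. PSMD5 (-1.01 ± 0.26), PSMD3 (-0.92 ± 0.19) and PSMD2 (-0.86 ± 0.22) fell most. PSMD1, PSMD11 and PSMC3 fell also, and PSMD9 rose (0.66 ± 0.25, adjusted p = 0.048). No core gene passed there, with a median of 0.20. Equal totals gave 10 lower and 0 higher with the median of all genes at -0.32, and leaving out letter A gave 4 lower and letter C 0. The rise of PSMD9 was not called without letter A (0.42), whose D7 value was the highest.

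The cytoplasmic D7 changes ran with coding length, the shorter genes standing higher: Pearson -0.78 across members and -0.43 across 12398 protein-coding genes, and in the heavy pool -0.78 and -0.39. By limma no member's heavy pool change differed from its cytoplasmic change on D7, where 3.20% of all genes lost and 0.749% gained; 8 were lower and 0 higher at an unadjusted p under 0.05; edgeR called 0 as well, and 5 members gained under equal totals, which set the median of all genes at 0.52. Among those was PSMB6, at 0.53 under equal totals and -0.09 here.

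On D14 and D16 most of the set was lower in both pools. In the heavy pool 30 members fell and 2 rose on D14, where 37.6% of all genes fell and 34.4% rose, and 31 fell and 0 rose on D16, where 36.6% fell and 36.2% rose. The median log2 change on D16 was -1.55 over regulatory genes, -0.99 over core genes, -0.48 over the chaperones and 0.02 over all genes. PSMD2 had 8838, 8847 and 8288 on D16, against 51198, 50536 and 54188 on D0, a fall of 6.0-fold (-2.59 ± 0.10, adjusted p = 3.4e-15). PSMD3 had 7233, 7345 and 6181 on D16, against 31384, 31792 and 33898 on D0 (-2.23 ± 0.10). PSMC3 had 4601, 4737 and 4842 on D16, against 18176, 19386 and 19852 on D0 (-2.02 ± 0.09). In these 3 genes no D16 library came within 2-fold of any D0 library. PSMD4 fell by 1.77, PSMD1 by 1.55, PSMC2 by 1.43 and PSMD14 by 1.19 on the log2 scale. All catalytic subunits fell: PSMB5 had 6748, 6726 and 7679 on D16 against 19291, 22835 and 22896 on D0 (-1.62 ± 0.10), PSMB7 changed by -1.36 ± 0.08 and PSMB6 by -1.02 ± 0.09. PSMA3, an alpha ring subunit, changed by -0.92. The D16 change had a Pearson correlation of -0.66 with log2 coding length across the 33 genes and of -0.31 across 12396 protein-coding genes, and the D14 change of -0.74 and -0.42.

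The D14 falls in the heavy pool were led by the same gene, PSMD2 (-2.06 ± 0.10), with PSMD3 at -1.74 and PSMD4 at -1.42. PSMB5 was at -1.14, PSMB7 at -0.98 and PSMB6 at -0.46. PSMD9 (0.40 ± 0.13) and PSMA7 (0.22 ± 0.08, adjusted p = 0.018) rose on that day; the call of PSMA7 ended without letter A or B and that of PSMD9 without letter C. PSMA1, whose counting is uncertain, passed on neither D14 (0.19) nor D16 (0.10), and PSMD9 did not pass on D16 (0.11). These counts were the steadiest: over all alternatives 29 to 32 members passed on D14 and 30 to 31 on D16. Under equal totals, which set the median of all genes at 0.30 on D14 and 0.44 on D16, 26 fell and 3 rose on D14 and 29 fell and 2 rose on D16; PSMD10 on D14 and PSMA7 on D16 changed sign. The share of ribosomal protein mRNAs was higher in the same heavy pool libraries, and its part in these falls was not tested.

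In the cytoplasm the late falls had smaller medians, of like size in both particles. On D14, 17 members fell and 0 rose, where 5.05% of all genes fell and 7.75% rose, and on D16, 24 fell and 0 rose, where 7.26% fell and 9.47% rose. The D16 median was -0.88 over core genes, -0.80 over regulatory genes and -0.01 over all genes. PSMA7 had 12553, 10480 and 12474 on D16 against 27233, 24976 and 22749 on D0 (-1.08 ± 0.23, adjusted p = 0.0035). PSMD11, a lid subunit, had 5040, 5367 and 5826 on D16 against 11044, 11125 and 12019 on D0 (-1.08 ± 0.14), and PSMB6 had 6081, 6313 and 6335 against 13620, 12403 and 12466 (-1.04 ± 0.19). The same 3 led on D14, with -0.92 for PSMD11, -0.91 for PSMA7 and -0.90 for PSMB6. PSMB5 changed by -0.92 and PSMB7 by -0.84 on D16, and PSMD2 by -0.90. Letter B stood under letters A and C in PSMC6, a gene of low GC content, which had 2133, 870 and 2201 on D16, against 2489, 3184 and 2214 on D0, and did not pass. Without the 3 libraries that stand apart 18 members fell on D14 and 22 on D16. The counts fell to 8 and 15 without letter A, 6 and 8 without letter B, and 0 and 1 without letter C, where 1.59% and 2.76% of all genes passed.

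The heavy pool fell more than the cytoplasm in many regulatory particle genes. On D14 the difference was negative in 8 members and positive in 2, where 16.7% of all genes lost and 11.5% gained. On D16 it was negative in 12 and positive in 2, where 17.9% lost and 11.6% gained. Of the 12, 10 were regulatory genes, and the others were PSMB5 and PSMD5. PSMD2 changed by -2.59 in the heavy pool and -0.90 in the cytoplasm, a difference of -1.68 ± 0.24 (adjusted p = 2.9e-05). PSMD3 differed by -1.38 ± 0.21 and PSMC3 by -1.16 ± 0.19 on D16. PSMD4 (-0.93), PSMD5 (-0.82), PSMD1 (-0.78), PSMB5 (-0.69) and PSMC2 (-0.69) passed as well. The median was -0.69 over regulatory genes, -0.18 over core genes and -0.09 over all genes. On D14 PSMD2 differed by -1.28 ± 0.24, PSMD5 by -0.94 ± 0.28 and PSMD3 by -0.88 ± 0.21.

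PSMA7 and PSMD9 went the other way. PSMA7 had 17919, 18240 and 17470 in the heavy pool on D14, above its D0 values there, while its cytoplasmic value on D14 was 13569, 12830 and 13259, under the D0 values there. The difference of changes was 1.14 ± 0.24 on D14 (adjusted p = 0.0012) and 0.82 ± 0.24 on D16. The heavy pool to cytoplasm ratio of PSMA7 thus lay on opposite sides of 1 on D14 and D0. PSMD9 differed by 0.76 ± 0.28 on D14 and 0.84 ± 0.28 on D16 (adjusted p = 0.023), with 495, 405 and 592 in the heavy pool on D16 against 432, 502 and 430 on D0, overlapping. In the cytoplasm it had 392, 333 and 438 on D16 against 609, 653 and 656 on D0, with no overlap, a change of -0.73 ± 0.25 that did not pass (adjusted p = 0.052). Both have short coding sequences, PSMA7 of 744 bases and PSMD9 of 669 bases. PSMB2 (603 bases) and PSMB3 (615 bases) are shorter and passed in neither direction on D16. The D16 difference had a Pearson correlation of -0.69 with log2 coding length across the 33 genes and of -0.56 across 12399 protein-coding genes, and on D14 of -0.75 and -0.60. Equal totals gave 5 negative and 3 positive on D14 and 7 negative and 3 positive on D16, with the median of all genes at 0.07 and 0.17. Without letter B 2 members passed on D14 and without letter C 4, and on D16 6 passed without letter C. The difference of PSMA7 was not called without letter B on either day, nor without letter C on D16, and that of PSMD9 was not called without any letter.

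The balance between particles moved with these changes. The summed value of the 13 core genes over that of the 17 regulatory genes was 0.957 to 1.01 in the heavy pool on D16, against 0.623 to 0.662 on D0. Values on D14 (0.972 to 1.02), D2 (0.849 to 0.875) and D7 (0.802 to 0.894) also lay above all D0 libraries, and on D1 (0.646 to 0.707) they overlapped D0. In the cytoplasm D7 had 1.18 to 1.34, above D0 with 0.878 to 0.957, while D14 had 0.860 to 0.904 and D16 0.815 to 0.925, overlapping D0. The ratio cancels the scaling of a library. PSMD2 weighs much in such a sum, and the difference of mean log2 values, which weighs genes equally, ran the same way: 0.0324 to 0.0996 in the heavy pool on D16, against -0.53 to -0.43 on D0. The particles also differ in median coding length, 744 bases for core and 1254 bases for regulatory genes. Over all protein-coding genes the heavy pool changes ran with log2 coding length too (Pearson -0.39 on D7, -0.42 on D14 and -0.31 on D16). The part of length in this balance was not tested.

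**Figure D4:**
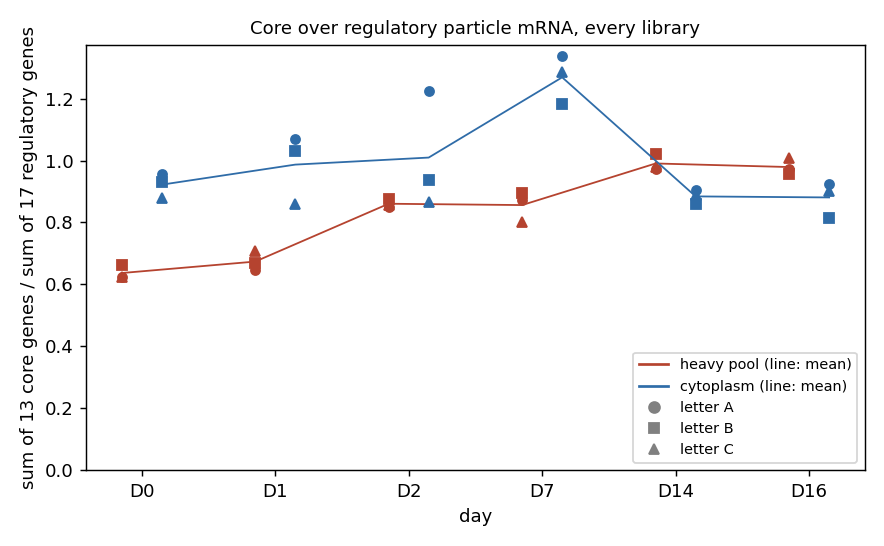
Sum of the 13 core genes divided by the sum of the 17 regulatory genes in every library by day, with lines through the means of 3 libraries and a symbol for each letter. Heavy pool libraries lie at 0.623 to 0.662 on D0 and at 0.957 to 1.01 on D16, and cytoplasmic libraries have their highest mean on D7, at 1.18 to 1.34, where D2 letter A, at 1.23, lies within the D7 range.

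The 3 assembly chaperones among the members differed in their courses. PSMD5 had 1762, 1774 and 1980 in the heavy pool on D16 against 4224, 4342 and 4772 on D0 (-1.27 ± 0.09), and 1122, 1505 and 1735 in the cytoplasm on D16 against 1664, 2001 and 2270 on D0 (-0.46 ± 0.26, not passing). In the heavy pool the groups were apart, and in the cytoplasm they overlapped. PSMD10, known also as gankyrin, had 1872, 1993 and 2215 in the heavy pool on D16 against 2757, 2971 and 2722 on D0 (-0.48 ± 0.10). PSMD9 peaked on D7, with 646, 774 and 768 in the heavy pool against 432, 502 and 430 on D0, and 1346, 708 and 1085 in the cytoplasm against 609, 653 and 656 on D0. All D7 values of PSMD9 lay above all D0 values in both pools. These are low counts for the set, and exons of PSMD9 overlap WDR66.

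Between consecutive stages, part of the set rose again on D7 and most of it fell by D14. In the heavy pool 16 members rose and 2 fell on D7 against D2, where 28.7% of all genes rose and 28.3% fell. PSMD9 (0.70), PSMC2 (0.67) and PSMD14 (0.67) rose most, and PSMD5 (-0.35) and PSMB6 (-0.24) fell. PSMC2 had 4262, 4946 and 5628 on D7 against 3235, 2982 and 3062 on D2, with no overlap. Without letter B 10 members passed. In the cytoplasm PSMA4 (1.00) and PSMA5 (0.58), alpha subunits, rose on D7 against D2 and PSMD3 (-0.56) fell, where 9.48% of all genes rose and 11.8% fell. The replicate block made this 9 higher and 2 lower, edgeR 1 higher and 0 lower, equal totals 0 higher and 1 lower with the median of all genes at -0.19, and leaving out the libraries that stand apart 4 higher and 1 lower. Without letter B 1 passed and without letter C 0.

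On D14 against D7, 27 members fell and 1 rose in the heavy pool, where 28.9% of all genes fell and 29.5% rose. PSMD2 (-0.96), PSMB5 and PSMD5 (-0.81 each) fell most, and PSMA7 rose (0.20), a call that ended without any 1 letter. PSMB5 had 9240, 9813 and 10452 on D14 against 15872, 17115 and 18746 on D7. In the cytoplasm 23 fell and 0 rose, where 19.1% of all genes fell and 16.5% rose, and 12 of the 13 core genes were among them. The shorter genes fell more: the change had a Pearson correlation of 0.79 with log2 coding length across members. Across 12398 protein-coding genes it was 0.54. Core genes are the shorter ones, and the part of length in their falls was not tested. PSMA4 (-1.14), PSMB5 (-1.07) and PSMB3 (-1.06) fell most. PSMB5 had 7516, 8967 and 7669 on D14 against 21053, 14064 and 16044 on D7, D7 letter A being the highest. Equal totals set the median of all genes at 0.48 and gave 8 lower and 1 higher, with PSMC4 and PSMD13 near 0 and of the other sign. Without letter A 9 fell, without letter C 1, and without the libraries that stand apart 14.

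The inducible catalytic subunits, which replace PSMB5, PSMB6 and PSMB7 in immunoproteasomes, rose while the constitutive ones fell in the heavy pool on D16. PSMB9 had 753, 739 and 568 in the heavy pool on D16 against 188, 149 and 160 on D0, a rise of 2.04 ± 0.15 (log2, adjusted p = 4.8e-11). In the cytoplasm it had 684, 866 and 482 on D16 against 270, 202 and 128 on D0 (1.78 on the log2 scale). PSMB8 had 40.7, 44.6 and 37.7 in the heavy pool on D16 against 10.1, 19.6 and 10.8 on D0 (1.59 ± 0.33, adjusted p = 2.0e-04), and all its values are low. PSMB10 had its largest heavy pool rise on D7, with 403, 366 and 512 against 131, 126 and 125 on D0 (1.73 ± 0.15), and 160, 192 and 153 on D16 (0.40). On D2 PSMB8 (1.02), PSMB9 (0.50) and PSMB10 (0.42) were all higher in the heavy pool, where 30.4% of all genes rose. On D7 PSMB8 (-0.11) and PSMB9 (0.31) did not pass there. In the cytoplasm PSMB9 alone of these passed on D1 (1.00, adjusted p = 0.028 by limma), where 10.9% of all genes rose. PSMB9 alone passed there on D16 as well, where 9.47% of all genes rose, while PSMB8 (1.24) and PSMB10 (0.77) did not. The value of PSMB9 was 11.0 ± 2.44% of that of PSMB6 in the heavy pool on D16, against 1.31 ± 0.265% on D0 (SD, n = 3). In the cytoplasm the same share was 10.9 ± 3.06% on D16 against 1.54 ± 0.486% on D0. PSMB10 was 3.59 ± 0.448% of PSMB7 on D7 against 0.760 ± 0.0726% on D0 in the heavy pool. These shares are not corrected for length. Of PSMB8, PSMB9, PSMB10 and the activators PSME1 and PSME2, 3 rose and 1, PSME2 (-0.39), fell in the heavy pool on D16, where 36.2% of all genes rose and 36.6% fell. In the cytoplasm 4 rose on D7, where 18.3% of all genes rose. PSME2 changed sign under equal totals on D16.

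**Figure D5:**
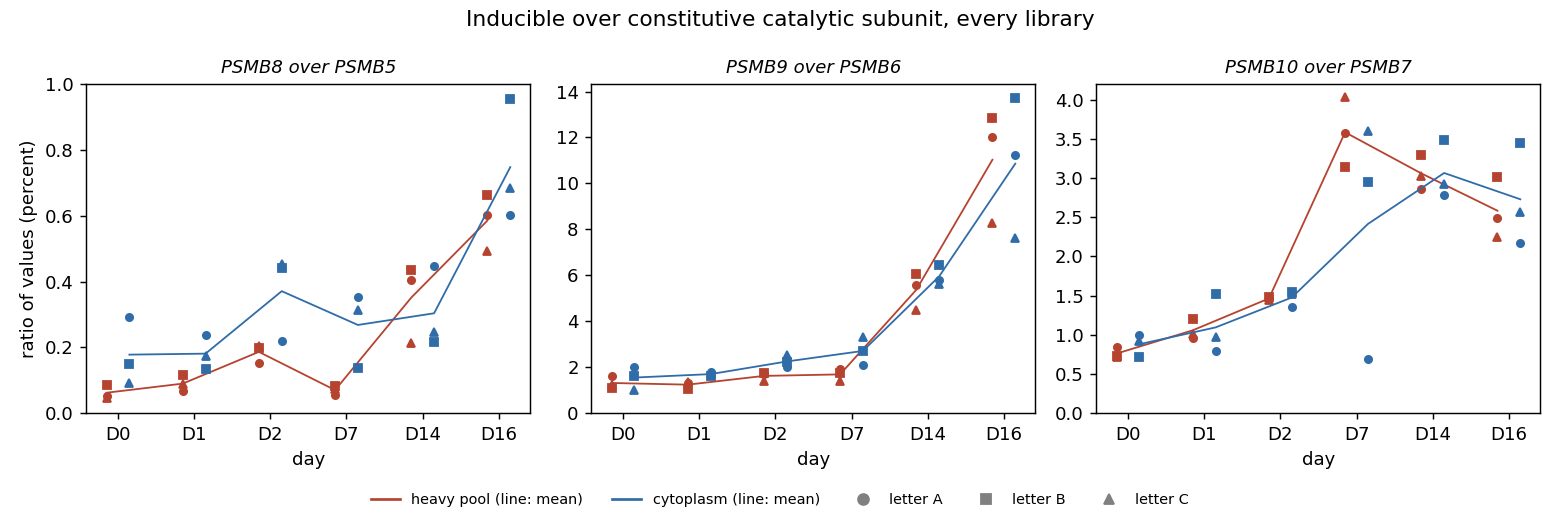
Value of each inducible catalytic subunit as a percentage of the constitutive subunit it replaces, in every library by day, with lines through the means of 3 libraries. PSMB9 over PSMB6 reaches 8.26 to 12.8% in the heavy pool on D16, against 1.11 to 1.61% on D0, while PSMB10 over PSMB7 is highest in the heavy pool on D7, at 3.15 to 4.04%.

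Genes that act with the proteasome did not all follow it. Of 15 activators, inhibitors and bound proteins, 10 fell and 3 rose in the heavy pool on D16, where 36.6% of all genes fell and 36.2% rose, with a median log2 change of -0.73. ADRM1, a ubiquitin receptor of the cap, had 6741, 6881 and 6464 on D16 against 22392, 24536 and 26279 on D0 (-1.86 ± 0.09), and rose in the cytoplasm on D1 (0.97) as PSMB5 did. The activator PSME4 and the deubiquitinase USP14 fell by 1.28 each on the log2 scale. SEM1, a very small lid subunit, rose in the heavy pool by 0.70 on D16, with a difference from the cytoplasmic change of 1.32. Of 6 assembly chaperones outside the set, 3 rose and 2 fell in the heavy pool on D16, near the shares of all genes (36.2% higher and 36.6% lower). PSMG4 rose by 1.04 and PSMG3 by 0.76, both for core assembly, and PSMG1 fell by 0.76 there.

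Among 8 genes of the NFE2L1 axis, 5 fell and 2 rose in the heavy pool on D16, where 36.6% of all genes fell and 36.2% rose, with a median of -0.43; MAFK was among the 5 and changed sign under equal totals. NFE2L1 itself was lowest on D7: it had 3674, 2961 and 3735 in the heavy pool on D7 against 9531, 8722 and 9198 on D0 (-1.41 ± 0.13), and 1892, 2103 and 1483 in the cytoplasm against 5218, 5268 and 6616 on D0 (-1.65 ± 0.28). VCP, the unfoldase that extracts NFE2L1 and other substrates from membranes, was lowest on D2, with 2764, 2948 and 3379 in the heavy pool against 14865, 13337 and 15817 on D0 (-2.28 ± 0.18), and a cytoplasmic change of -1.87 ± 0.17. MAFF, a small MAF partner, rose by 1.25 in the heavy pool on D2.

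Both E1 enzymes, which activate ubiquitin at the start of its transfer to substrates, fell in the heavy pool on D16. UBA1, the main E1 enzyme, changed by -1.56 ± 0.15, and UBA6, whose fall changed sign under equal totals, by -0.36 ± 0.11 (SE, limma). Of 9 subunits of the COP9 signalosome, a complex related in architecture to the lid, 8 fell and 0 rose in the heavy pool on D16, where 36.6% of all genes fell and 36.2% rose. GPS1 fell most (-1.64 ± 0.08), and COPS2 and COPS7B changed sign under equal totals. The lists were chosen for their known roles, with earlier results of these data known, and no test of a list as a whole is given.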

How the data were processed

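RNA of HCT-116 cells was sequenced by the authors from poly(A)-selected libraries whose kit marks strand, per the labels. The submitters' processing notes name these tools: DESeq2 1.30.1, STAR 2.7.9a, Subread 2.0.1 with its featureCounts, cutadapt 3.2 and FastQC 0.11.9, and the build GRCh38; whether counting used strand is not given in the sources used here. Values were deposited by the authors as a normalised signal, in which the reads of a gene were scaled by 1 size factor for the whole library. Of 54 columns, 18 matched no sample and were not used. Low values step by the worth of 1 read, which gave whole reads for 100% of values within 0.01, and depth was summed from these.

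Names, coordinates, coding lengths (principal transcript) and overlaps come from GENCODE 29 on GRCh38. Values were tested as log2(value + 1) with limma 3.58.1 (trended eBayes, R 4.3.3) on group means within a fraction, or over all 12 groups for the ratio of heavy pool to cytoplasm and its change. Genes needed at least 10 in at least 3 libraries; all 33 members passed. A fold change on this scale understates low genes. Tests were two-sided, adjusted by Benjamini-Hochberg over all genes and called under 0.05. The fits were tested on simulated data. Named genes were PSMB5, PSMB6, PSMB7, PSMA3, PSMC2, PSMD1, PSMD4, PSMD14, PSMD5, PSMD9 and PSMD10, and per comparison up to 3 of the largest rises and falls that passed with the same sign in all 3 letters; others, such as PSMC6, PSMA1, PSMA5 and PSMD8, were named after their values were seen. Members and lists were chosen with earlier results of these data known. Alternatives were a pseudocount of 10, no filter, equal library totals, edgeR 4.0.16 on the recovered reads, letter as a block, each letter left out, and 3 cytoplasmic libraries left out (D7 A, D14 B, D16 B). Letters are batches in the labels. Same-letter deviations correlated at a mean of 0.235 in the cytoplasm and 0.106 in the heavy pool, over 45 pairs each. Some genes of the lists are not reported here.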

Additional observations from a re-analysis of the deposited data

Results flagged for a closer look

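Each difference here is the heavy pool change minus the cytoplasmic change since D0, on the log2 scale, for a named gene whose interaction of pool and day passed in limma over all genes. On D1 it was -0.88 in PSMB7, -0.84 in PSMD4 and -0.84 in PSMD3. On D2 it was -0.80 in PSMD4 and -0.96 in PSMC3. On D14 it was -1.28 in PSMD2, -0.94 in PSMD5, -0.88 in PSMD3 and -0.53 in PSMD4, and it was positive in PSMA7 (1.14) and PSMD9 (0.76). On D16 it was -1.68 in PSMD2, -1.38 in PSMD3, -1.16 in PSMC3, -0.93 in PSMD4, -0.82 in PSMD5, -0.78 in PSMD1, -0.69 in PSMB5 and -0.69 in PSMC2, and it was positive in PSMD9 (0.84) and PSMA7 (0.82). The D1 and D2 differences ran with GC content and those of D14 and D16 with coding length, in members and in all protein-coding genes. On D2 the members differed from all genes in length: the Pearson correlation with log2 coding length was -0.42 across members and 0.09 across protein-coding genes. The part of GC content or length in these differences was not tested.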

How the results depend on the processing

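A pseudocount of 10 and no filter left every count of members and every named call as it was. Of 2250 repeats of named results, 1916 kept direction and call, 195 lost the call, 52 gained it, 80 uncalled values changed sign and 7 reversed. The 7 arose under equal library totals: on D2 in the heavy pool PSMA3 (0.049), PSMD5 (0.15), PSMD9 (0.36) and PSMD10 (0.35), on D7 PSMB6 in the heavy pool (0.23) and in the difference between pools (0.53), and on D14 PSMD10 in the heavy pool (0.017). Equal totals also gave 9 members for the cytoplasm on D2, 15 for the heavy pool on D1, 17 on D2, 0, 0 and 5 for the difference on D1, D2 and D7, and 1 and 9 for the cytoplasm on D7 against D2 and D14 against D7. With the replicate block, 9 members passed in the cytoplasm on D2, 10 in the heavy pool on D1 and 11 in the cytoplasm on D7 against D2; no other count moved by over 1.5 times. edgeR on recovered reads gave 1 for the cytoplasm on D7 against D2, and called 340 (difference on D2) to 11620 genes (heavy pool on D16), where limma called 328 and 11548. Without the 3 cytoplasmic libraries, 11 passed in the cytoplasm on D2, 5 on D7 against D2 and 14 on D14 against D7, and 14 and 7 for the difference on D1 and D2.

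Leaving out each letter in turn gave, for the cytoplasm, 0 to 7 members on D1, 1 to 3 on D2, 0 to 5 on D7, 0 to 8 on D14, 1 to 15 on D16, 0 to 3 on D7 against D2 and 1 to 16 on D14 against D7; for the heavy pool, 2 to 4 on D1 and 10 to 15 on D7 against D2; for the ratio at D0, 12 to 21; and for the difference, 0 to 1 on D1, 0 on D2 each time, 2 to 8 on D14 and 6 to 12 on D16. Without letter C, cytoplasmic calls over all genes fell too; the cause was not tested. Depth limits mainly the genes with few reads, such as PSMB8.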
